A study of Caenorhabditis elegans with 6 samples.

Results

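Pseudogenes are gene-derived sequences that have lost their coding capacity, yet many of them are templates for antisense 22G-RNAs in the C. elegans germ line. The loci described here are those that the authors' annotation calls pseudogenes and that carried 22G-RNA reads. Loci of the authors' ERGO1 and ALG34 classes were left out, as were names of the his-, msp-, fbx, math- and bath- families. Of 1553 pseudogene loci with 22G-RNA reads, 48 were left out by class and 82 by name alone, and 1423 remained out of 19781 loci with 22G-RNA reads of any biotype. The Ensembl annotation of assembly WBcel235 holds 2128 pseudogenes. It calls 1420 of the 1423 loci pseudogenes, 1 of them protein-coding and 1 a lincRNA, and has no entry for 1.

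Small RNAs were sequenced from synchronized whole adults. The untreated libraries came from a control strain carrying pgl-1::RFP, a tag on a P granule protein (2 libraries), and from eggd-1 null animals, whose label names no tag (2 libraries). A further library each came from N2, the wild type, and from eggd-1 null animals after sodium periodate treatment, referred to as oxidized. The control strain therefore differed between the untreated and the oxidized comparison, and in the untreated one the tag and the genotype cannot be told apart. The study's methods call the replicates biological but do not describe separate cultures for these libraries, so p-values measure the spread between these libraries. EGGD-1 is a germ granule protein, and the comparison asks how pseudogene 22G-RNAs change in its absence.

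22G-RNAs are made by RNA-dependent RNA polymerases on a target transcript and start mostly with a guanine. They are bound by different Argonautes: CSR-1, which protects germline-expressed genes, WAGO-1 in P granules, WAGO-4 in Z granules, and HRDE-1 in the nucleus, which acts in heritable silencing. MUT-16 builds the Mutator foci in which many WAGO-bound 22G-RNAs are amplified, and the Argonaute PRG-1 with its piRNAs marks many of their targets. 26G-RNAs are longer primary siRNAs. Those bound by ERGO-1 carry a methyl group at the 3′ end and resist periodate oxidation, whereas ALG-3/4-bound 26G-RNAs of the spermatogenic germ line and most 22G-RNAs do not carry it. In the authors' files each locus has a list of target classes named after these factors or after germ line type (Spermatogenic, Oogenic, GenderNeutral), and a locus can have several.

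The libraries held between 19457486 and 31245662 genome-mapped reads, and levels are in RPM, reads scaled to the genome-mapped reads of each library. The members received between 911392 and 1327130 22G-RNA counts in the untreated libraries, and 35975 and 24523 in the oxidized ones. 22G-RNAs antisense to eggd-1 itself were at 78.1 and 81.1 RPM in the control and at 0.366 and 0.469 RPM in eggd-1. Small RNAs of other tissues and stages also differed between the untreated groups. piRNAs of the authors' spermatogenic class summed to 6096 and 6192 RPM in the control and 12371 and 12736 RPM in eggd-1. 26G-RNAs of the ALG34 class summed to 324 and 351 RPM against 1180 and 1048 RPM. The 22G-RNAs of that class summed to 14157 and 13775 RPM against 15461 and 15887 RPM. The mir-35 to mir-42 family of oocytes and embryos summed to 19343 and 16759 RPM against 10642 and 10906 RPM, muscle mir-1 stood at 8334 and 8502 RPM against 11138 and 11830 RPM, let-7 with lin-4 summed to 2244 and 2396 RPM against 2996 and 3023 RPM, and intestinal mir-60 stood at 242 and 253 RPM against 250.4 and 237 RPM. The part of these differences in the results below was not tested. In whole animals fewer cells of a type and fewer small RNAs per cell cannot be told apart.

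Pseudogenes took 10.9% of the 22G-RNA pool in the control, and this share did not differ between the groups beyond the spread. The members summed to 44291 and 42474 RPM in the control and 41647 and 41025 RPM in eggd-1. The eggd-1 mean was 0.953 ± 0.03 (SD, n = 2 against 2) of the control mean, and an exact two-sided permutation test gave p = 0.33, the smallest value that 2 against 2 libraries allow. Protein-coding loci gave nearly the same ratio of 0.955 ± 0.027. The members' share of all 22G-RNA counts was 10.9% ± 0.0656 in the control and 10.8% ± 0.264 in eggd-1 (exact permutation p = 1.00). A few loci held most of this pool. The 10 highest members held 34.6% and 34.6% of the members' RPM in the control, and 33.6% and 32.9% in eggd-1. The 100 highest held 89.7% in the control. Only 75 members exceeded 100 RPM there, 233 exceeded 10 RPM and 468 exceeded 1 RPM.

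The members had between 68 and 6473 bases of exon, with a median of 895 bases, a median of 4 exons, and a single exon in 304 of them. Per kilobase of exon the typical pseudogene was less targeted than the typical protein-coding locus with 22G-RNAs, with a median of 0.252 against 0.699 RPM per kilobase in the control. At the upper end the order turned: 70 members (4.92%) exceeded 100 RPM per kilobase, against 341 protein-coding loci (1.97%). Among loci of the HRDE1 class the median was 35.5 RPM per kilobase for the 129 members and 22.97 for 1104 protein-coding loci. The 943 members without a class had a median of 0.11 RPM per kilobase. These are descriptions of levels over loci, with no test.

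The most abundant pseudogene target was Y59H11AR.6 (chromosome IV, 8597762 to 8598727, 541 bases of exon, classes GenderNeutral and MUT16). Its 22G-RNAs stood at 2427 and 2631 RPM in the control and at 2789 and 2782 RPM in eggd-1. Per kilobase of exon, its control mean was 4675 RPM. Its counts were whole numbers in every library. The eggd-1 libraries lay above both controls, but the change of 0.14 ± 0.07 (log2, SE) did not pass (edgeR adjusted p = 0.10). It passed as a rise with TMM scaling (0.29, edgeR adjusted p = 0.000964).

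Next came cars-2, a locus named after cysteinyl-tRNA synthetases (chromosome I, 2629685 to 2632320, Spermatogenic, MUT16, PRG1, WAGO1), with 1967 and 1874 RPM in the control against 1724 and 1623 RPM in eggd-1. Y39E4B.14 (chromosome III, 13162475 to 13164864, the same classes) had 1749 and 1731 RPM against 1562 and 1498 RPM. Both were lower in each eggd-1 library, by 0.20 and 0.19 on the log2 scale (edgeR adjusted p = 0.0191 and 0.0256). These small decreases did not pass with TMM scaling (edgeR adjusted p = 0.538 and 0.644), with the 22G-RNA total as library size (0.0629 and 0.0821), with DESeq2 (0.627 and 0.728), or without control replicate 1 or eggd-1 replicate 2. Y39E4B.14 also missed the threshold with limma and without eggd-1 replicate 1 (adjusted p = 0.0543 and 0.0687). F32A11.5 (chromosome II, 13131009 to 13134212, HRDE1, MUT16, PRG1, WAGO1) had 1633 and 1517 RPM in the control and 1059 and 977 RPM in eggd-1. This was the largest decrease among the 10, at −0.63 ± 0.07 on the log2 scale (edgeR adjusted p = 1.18e-08).

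The remaining members of the 10 moved by smaller amounts. Y46H3C.6 (GenderNeutral, MUT16, WAGO1, WAGO4) had 1609 and 1354 RPM against 1263 and 1194 RPM and fell by 0.27 on the log2 scale. Y71G12B.28 (HRDE1, GenderNeutral, MUT16, PRG1) had 1151 and 1074 RPM against 805 and 863 RPM and fell by 0.41 on the log2 scale. C01G6.10 (HRDE1, MUT16, PRG1), a single-exon locus, had 1018 and 1026 RPM against 770.5 and 819 RPM and fell by 0.36 on the log2 scale. These 3 passed edgeR's test at adjusted p = 0.00376, 1.19e-05 and 5.68e-05, the first of them neither with TMM (edgeR adjusted p = 0.16) nor without control replicate 1 or eggd-1 replicate 2. Y52B11A.18 (MUT16, WAGO1, WAGO4) passed as a rise, the only one of the 10 to do so when scaled to genome-mapped reads, from 1251 and 1116 RPM to 1568 and 1360 RPM, at 0.31 ± 0.08 on the log2 scale (edgeR adjusted p = 0.0012, and 0.0964 without eggd-1 replicate 1). Y17D7C.3 (Oogenic, MUT16) with 1393 and 1308 RPM against 1460 and 1396 RPM, and K08B4.5 (HRDE1, MUT16, PRG1, WAGO1) with 1143 and 1062 RPM against 1005 and 1004 RPM, did not pass (edgeR adjusted p = 0.337 and 0.102). With TMM, Y17D7C.3 passed as a rise (edgeR adjusted p = 0.00514), and K08B4.5 moved to 0.01 on the log2 scale. Without control replicate 2, Y59H11AR.6 passed as higher and K08B4.5 as lower (edgeR adjusted p = 0.0342 and 0.0468).

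**Figure D1:**
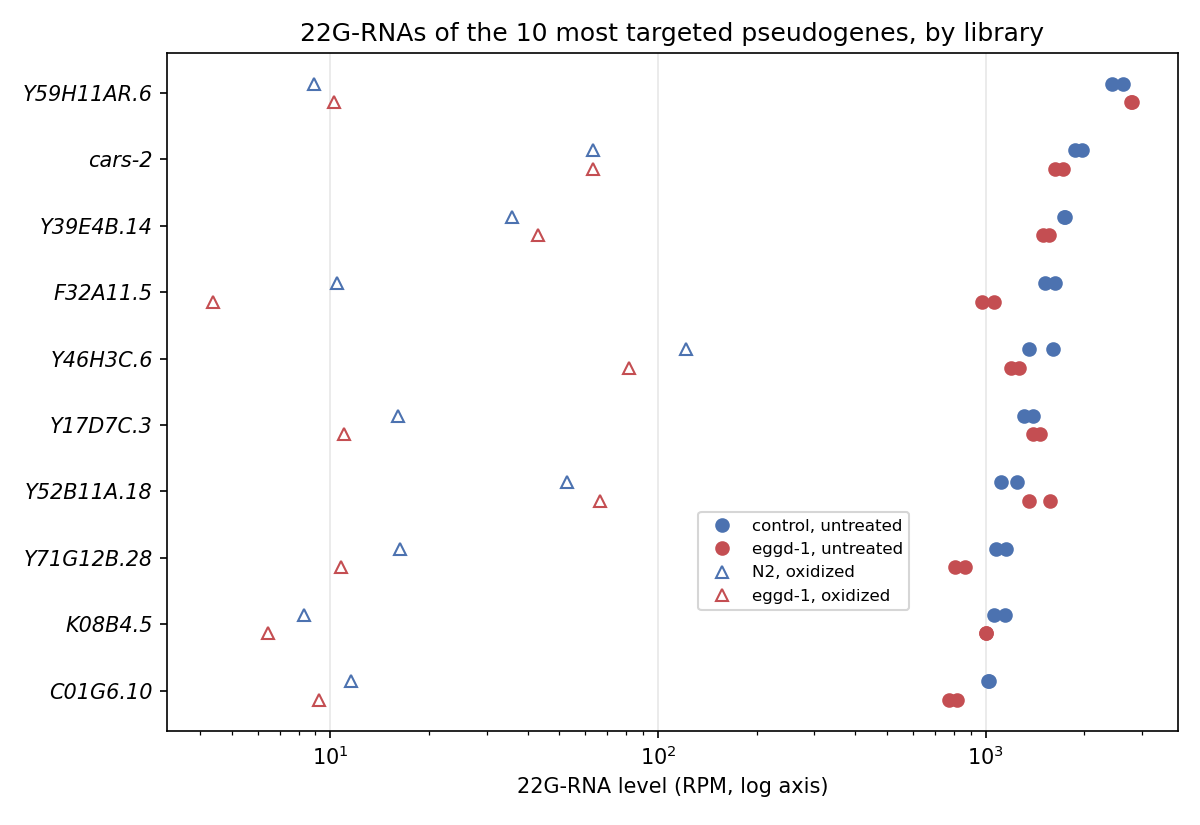
22G-RNA level of the 10 pseudogenes with the highest control mean, in RPM on a log axis, 1 point per library: filled circles are untreated, open triangles oxidized, blue control or N2, red eggd-1. Untreated values of F32A11.5 stood at 1633 and 1517 RPM in the control and at 1059 and 977 RPM in eggd-1, with no overlap, and the oxidized points of every locus lie far to the left.

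Of the 1423 members, 603 had enough reads to be tested between the untreated groups. The other 820 had a mean of at most 12.75 counts, held 0.139% of the members' control RPM, and included 4 with no read in any untreated library. Large changes were few. At a 4-fold change and adjusted p below 0.05 (edgeR quasi-likelihood test, adjusted over all 11741 loci tested), 18 members (2.99%) were lower in eggd-1, beside 4.81% of all loci tested, and 10 (1.66%) were higher, beside 2.04% of all loci tested. Of these 10, C48D1.7, Y22D7AR.12, Y116A8C.8 and C53D6.5 had fewer than 10 counts in both control libraries. Scaled for depth, srz-34 (8 and 12 control counts), Y54G2A.24 (6 and 11) and Y69A2AR.8 (17.5 and 11.3) also missed the filter's cut-off in a control library or in both. The filter asks for as many libraries as a group holds, so all of these entered the test only through eggd-1, where they are high. Of the 18 lower members, C35D6.5, nhr-194, B0250.12, F55C5.6 and F13H6.4 likewise entered only through the control. At adjusted p alone, 213 members (35.3%) fell, beside 40.8% of all loci, and 165 (27.4%) rose, beside 21.7% of all loci. The remaining 225 members did not pass. The median change over the members was −0.13 on the log2 scale and that over all loci −0.18. With TMM scaling these medians became 0.01 and −0.03, and the split at adjusted p turned to 174 members lower and 203 higher. DESeq2 with its own size factors gave 117 lower and 151 higher. The sign of the members' median and the balance of modest changes thus depended on the scaling.

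The deepest losses were at loci of middling abundance. Y53F4B.16 (chromosome II, 15052083 to 15054573, MUT16, PRG1, WAGO4) had 36.3 and 29.6 RPM in the control and 1.53 and 1.90 RPM in eggd-1, a change of −4.25 ± 0.14 on the log2 scale (edgeR adjusted p = 6.8e-22). F53H1.2 (chromosome IV, 1335896 to 1336434, MUT16) had 56.2 and 46.8 RPM against 4.61 and 4.75 RPM, a change of −3.46 ± 0.11. Y37H2B.1 (chromosome V, 18227037 to 18231455, no class) had 33.6 and 31.3 RPM against 3.61 and 3.20 RPM, a change of −3.25 ± 0.11. In all 3 the groups lay far apart compared with the spread within each.

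Y18D10A.30 (chromosome I, 12927895 to 12928456, no class) went from 44.4 and 45.5 RPM to 5.71 and 5.67 RPM, and K09D9.12 (chromosome V, 4002327 to 4004309, HRDE1, Oogenic, MUT16, PRG1) from 43.6 and 41.4 RPM to 6.40 and 5.76 RPM. Their changes were −2.98 ± 0.09 and −2.81 ± 0.09 on the log2 scale. At lower levels, F36G9.4 went from 5.93 and 6.24 RPM to 0.685 and 0.640 RPM, and ZK228.11 from 9.30 and 7.94 RPM to 1.14 and 0.895 RPM. The locus hsf-2, named after heat shock factor, went from 3.93 and 4.23 RPM to 0.449 and 0.512 RPM, and clec-237, named after C-type lectins, from 5.23 and 4.56 RPM to 0.823 and 0.405 RPM. F19B2.12, of the Spermatogenic class, went from 19.04 and 17.8 RPM to 3.34 and 2.88 RPM. These loci fell by between 2.56 and 3.19 on the log2 scale. Y37H2B.1, F36G9.4, Y18D10A.30 and K09D9.12 had whole-number counts in every library.

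F52G3.3 (chromosome X, 16944858 to 16948026, HRDE1, MUT16, PRG1, WAGO1) was the most abundant of the 18, and was picked out after its values were seen. It stood at 307 and 312 RPM in the control and 71.8 and 81.8 RPM in eggd-1, a change of −2.01 ± 0.08 on the log2 scale (edgeR adjusted p = 1.74e-20). It sat at the 4-fold line and fell short of it with TMM, with DESeq2, and without control replicate 2 or eggd-1 replicate 1. Its exons overlap those of another gene on the same strand, so the reads of both cannot be fully separated. Among the less abundant ones, F55C5.6 and F13H6.4 dropped out without control replicate 1 or eggd-1 replicate 2.

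By class, 11 of the 18 lower members had none, as had 35.3% of the members tested and 35.8% of the 565 loci called lower in all. Of these 11, C35D6.5, nhr-194, B0250.12, F55C5.6 and F13H6.4 entered the test only through the control, so the filter set their direction. Of the 18, 5 were of the MUT16 class (31.01% of the members tested and 32.9% of all loci called lower) and 10 lie on chromosome V (24.05% and 21.9%). Of the 10 higher members, 7 were of the Spermatogenic class, which holds 18.2% of the members tested but also 66.9% of the 239 loci called higher in all. Of these 7, Y69A2AR.8, C48D1.7, Y22D7AR.12, Y54G2A.24 and Y116A8C.8 entered the test only through eggd-1, so the filter set their direction. A further 2 of the 10, srz-34 and C53D6.5, had no class and entered in the same way. On chromosome IV lie 6 of the 10 (19.2% of the members tested and 29.3% of all loci called higher). The spermatogenic piRNAs and the ALG34-class 26G-RNAs given above were also higher in eggd-1, and their part in this was not tested. Only sdz-3 (chromosome II, 6299502 to 6301398, Spermatogenic), named as a SKN-1-dependent zygotic transcript, had a mean of at least 50 counts among the 10. It stood at 1.26 and 1.57 RPM in the control and 6.51 and 6.23 RPM in eggd-1, a change of 2.15 ± 0.18 on the log2 scale (edgeR adjusted p = 8.58e-12). The others stayed below that depth, with eggd-1 means down to 0.433 RPM. The largest fitted increases, picked out after their values were seen, were C53D6.5, with 0.071 and 0.032 RPM against 0.823 and 0.682 RPM, and Y116A8C.8, with 0.0532 and 0.016 RPM against 0.411 and 0.455 RPM. In both the control values lie under the 3-count floor of about 0.1 RPM, so the size of the increase is poorly set. Without a single library, F55C5.6, F13H6.4, C48D1.7, F52G3.3, Y69A2AR.8 or Y22D7AR.12 lost the call, 3 at a time, and the other 22 of the 28 kept it in each of the 4 fits.

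**Figure D2:**
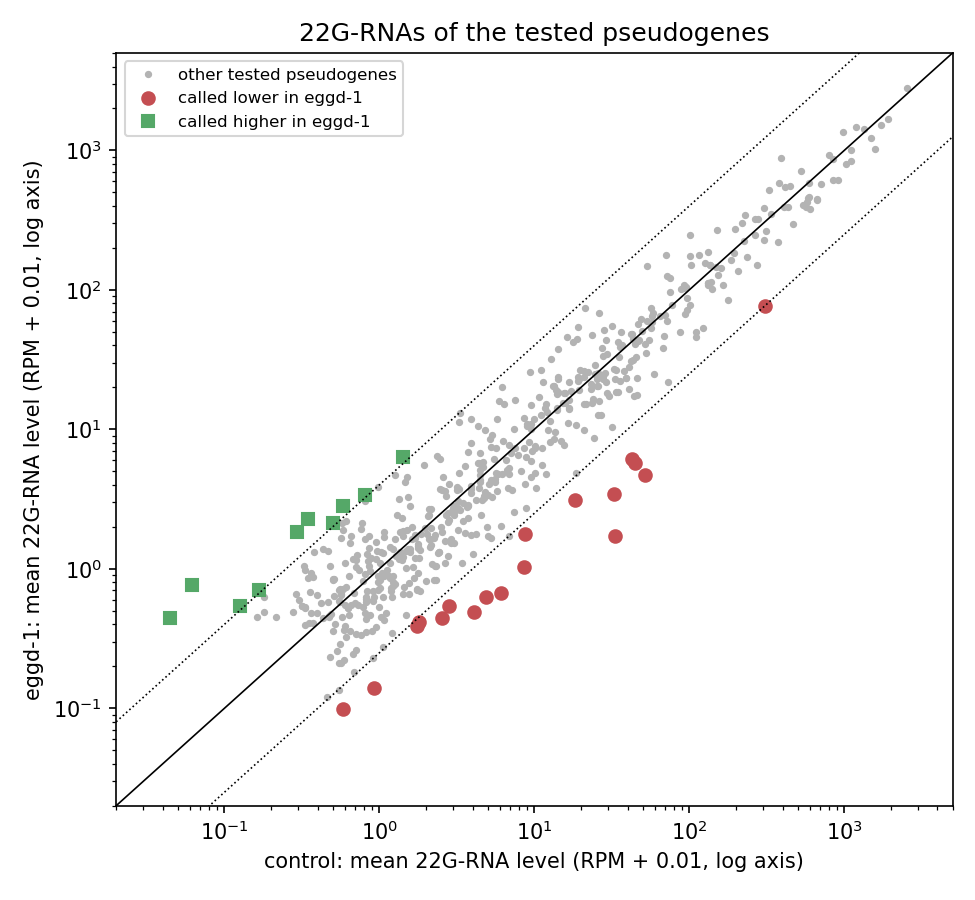
Mean 22G-RNA level of each of the 603 tested pseudogenes in the control and in eggd-1, both as RPM plus 0.01 on log axes; the solid line marks equal levels and the dotted lines a 4-fold difference. The 18 loci called lower (red circles) reach up to 310 RPM in the control, whereas the 10 called higher (green squares) stay at or under 6.37 RPM in eggd-1.

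The members were next summed by target class. The 129 HRDE1-class members summed to 20352 and 19396 RPM in the control and 16022 and 16071 RPM in eggd-1, with a ratio of 0.807 ± 0.027 (SD, n = 2 against 2, exact permutation p = 0.33, as in every class comparison whose groups do not overlap). Of the 126 tested, 74 fell, 29 rose and 23 did not pass, with a median change of −0.35 on the log2 scale against −0.53 over all 1251 HRDE1-class loci tested. That is 58.7% lower and 23.02% higher, against 63.5% and 20.1% over the class. The other loci of the class gave nearly the same ratio, 0.811 ± 0.025. The 120 PRG1-class members gave 0.839 ± 0.026, with 61 lower and 27 higher of 113 (53.98% lower, against 60.3% of the 1420 loci of the class tested). The 84 WAGO1-class members gave 0.859 ± 0.044, with 43 lower and 13 higher of 79 (54.4% lower, against 55.8% over the class). The 198 MUT16-class members gave 0.894 ± 0.03, with 98 lower and 44 higher of 187 (52.4% lower, against 56.96% over the class). These classes share many loci and are not independent. With TMM the splits were closer to even, at 63 lower and 35 higher for HRDE1, 48 and 37 for PRG1, 30 and 19 for WAGO1, and 79 and 60 for MUT16.

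Disjoint groups of classes differed in direction. The 69 MUT16-class members outside the HRDE1 class summed to 16618 and 15944 RPM in the control and 16566 and 15973 RPM in eggd-1, with a ratio of 0.999 ± 0.039, and the groups overlapped. The 282 members that had a class other than these summed to 5474 and 5333 RPM against 7480 and 7429 RPM, a ratio of 1.38 ± 0.026. Of their 203 tested loci, 90 rose, 35 fell and 78 did not pass, beside 21.7% higher and 40.8% lower of all loci tested. Other loci were not grouped in this way, so whether this is particular to pseudogenes was not tested. The 943 members with no class summed to 1848 and 1801 RPM against 1580 and 1552 RPM, a ratio of 0.858 ± 0.019, and only 213 of them were tested. The other loci with no class gave 0.887 ± 0.026. The ratio of HRDE1-class members to all other members, in which library scaling cancels, was 0.850 and 0.840 in the control and 0.625 and 0.644 in eggd-1. The groups did not overlap, and the exact permutation test again gave its smallest value of p = 0.33.

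Besides F32A11.5, Y71G12B.28, C01G6.10 and F52G3.3, described above, several abundant HRDE1-class loci fell. Examples picked out after their values were seen were F46F2.4 (chromosome X) with 936 and 884 RPM against 589 and 641 RPM, C06C3.5 with 724 and 619 RPM against 449 and 439 RPM, and Y60A9A.3 (chromosome X) with 598 and 597 RPM against 349 and 406 RPM. Their changes were −0.57, −0.60 and −0.66 on the log2 scale. Not every HRDE1-class pseudogene fell: wago-2, an Argonaute-related pseudogene of the HRDE1, PRG1 and WAGO4 classes among others, had 406 and 407 RPM against 400 and 392 RPM (−0.04 ± 0.07, edgeR adjusted p = 0.65).

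In the group of other classes, examples also picked out after their values were seen were as follows. C14B1.7 (chromosome III, 3719904 to 3723597, GenderNeutral, WAGO4) had 409 and 375 RPM in the control and 890 and 869 RPM in eggd-1, a change of 1.16 ± 0.07 on the log2 scale. The ferlin-named locus ferl-1 (chromosome I, Spermatogenic) had 1016 and 944 RPM against 1372 and 1334 RPM (0.47 ± 0.07). T08D2.3 (chromosome X, 173180 to 177000, GenderNeutral) had 104 and 98.96 RPM against 254 and 245 RPM, a change of 1.30 ± 0.07. The kinesin-named locus klp-10 (Oogenic, CSR1) had 221 and 215 RPM against 292 and 313 RPM, and F43G6.3, of the same classes, 158 and 144 RPM against 269 and 267 RPM. All 5 passed edgeR's test, with adjusted p of at most 1.83e-06, and in each both eggd-1 libraries were above both controls.

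The germ line classes differed from each other. The 36 Oogenic-class members summed to 3059 and 2930 RPM in the control and 3641 and 3648 RPM in eggd-1, with a ratio of 1.22 ± 0.037, and 15 rose and 7 fell of 35, against 16.7% higher and 44.5% lower over the class. The other Oogenic-class loci gave 0.966 ± 0.03, and the median change was 0.26 for the members and −0.24 over all loci of the class; the difference between them was not tested. The 18 CSR1-class members gave 1.10 ± 0.026, and the other CSR1-class loci nearly the same ratio, 1.12 ± 0.033. Of the members, 5 were higher and 5 lower (9 and 3 with TMM), 27.8% each, against 20.6% higher and 40.2% lower over the class. The most abundant of these members, Y57A10A.1, did not pass, with 329 and 342 RPM against 355 and 351 RPM (0.07 ± 0.07, edgeR adjusted p = 0.356, and 0.00402 as a rise with TMM). The 139 GenderNeutral members gave 1.05 ± 0.019 with 39 higher and 38 lower of 134 (53 and 26 with TMM). That is 29.1% higher and 28.4% lower, against 18.2% and 42.5% over the class. The 58 WAGO4-class members gave 0.987 ± 0.053 with overlapping groups, 23 lower and 13 higher (17 and 21 with TMM). That is 39.7% lower and 22.4% higher, against 44.4% and 21.5% over the class. For the 183 Spermatogenic members the sum and the median change gave different pictures. Their summed RPM had a ratio of 0.968 ± 0.039, with overlapping groups (exact permutation p = 0.67). Their median change was 0.54 on the log2 scale, and 60 rose and 24 fell of 110. Over all 1584 loci tested of this class 807 rose and 326 fell, 50.9% and 20.6%, against 54.5% and 21.8% of the members. The class includes the abundant cars-2 and Y39E4B.14, which were lower, the abundant ferl-1, which rose, and less abundant loci that rose, such as abt-3, with 6.58 and 5.70 RPM against 20.4 and 20.1 RPM, and cyp-31A1, with 19.4 and 18.05 RPM against 43.3 and 45.4 RPM. Under TMM scaling the sums of the WAGO4 and Spermatogenic members turned to 1.09 and 1.07, and those of HRDE1, PRG1, WAGO1 and MUT16 members stayed below 1. Among members with no class the most abundant was C18H2.9 (chromosome III, 7669839 to 7672153), which fell from 300.4 and 308 RPM to 228 and 230 RPM (−0.41 ± 0.07, edgeR adjusted p = 6.19e-06).

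**Figure D3:**
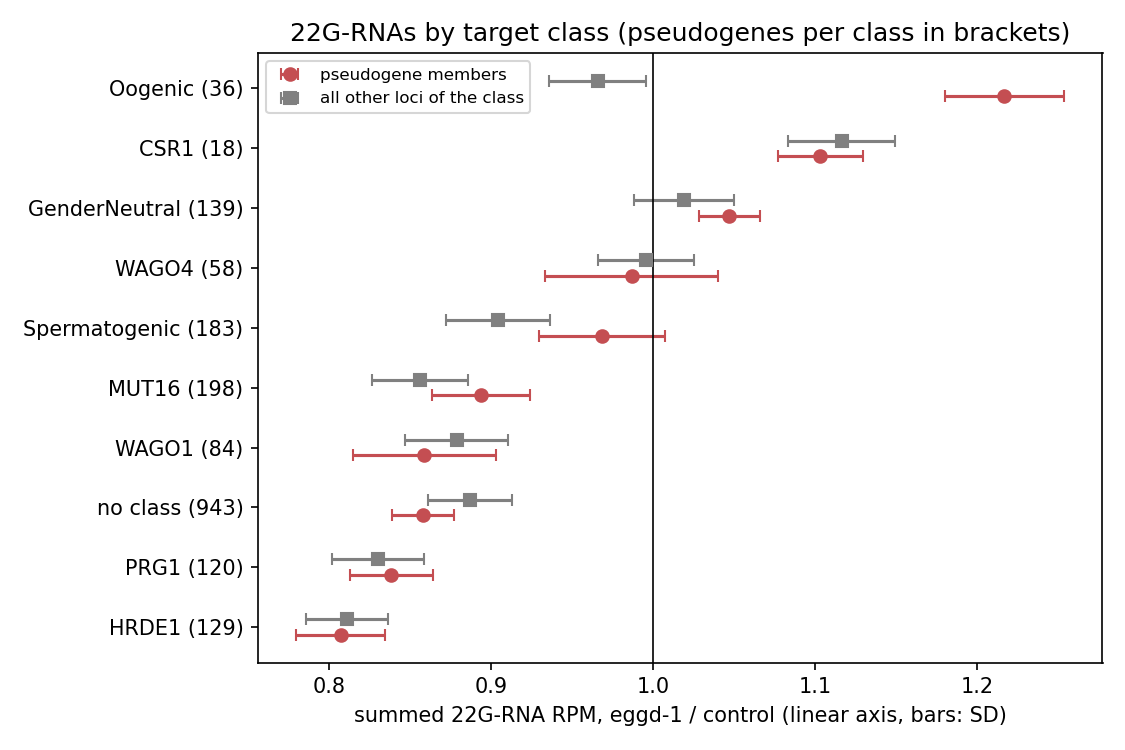
Ratio of summed 22G-RNA RPM in eggd-1 over the control for each of the authors' target classes, on a linear axis, with SD bars from 2 libraries a group: red circles are the pseudogene members, grey squares all other loci of the class. HRDE1 (0.807) and PRG1 (0.839) lie lowest for members and for other loci alike, and the Oogenic class is the one in which members (1.22) and other loci (0.966) lie farthest apart.

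Pseudogenes are unevenly placed in the genome. Chromosome V holds 495 members (34.8%), against 22.02% of the other 22G-RNA loci, and chromosome IV holds 280, II holds 223, I holds 154, X holds 145 and III holds 125. Chromosome V gave only 6699 and 6159 RPM in the control, less than chromosome I with 10187 and 9572 RPM. X-linked members summed to 4948 and 4727 RPM in the control and 3635 and 3721 RPM in eggd-1, with a ratio of 0.76 ± 0.028. Of the 90 tested on X, 41 fell and 13 rose, beside 40.8% lower and 21.7% higher of all loci tested on any chromosome. The other X-linked loci gave a ratio of 0.706 ± 0.026. Relative to autosomal members, X-linked ones were at 0.1258 and 0.1252 in the control and at 0.0956 and 0.0997 in eggd-1 (exact permutation p = 0.33). Members on chromosome III gave the highest ratio of any chromosome, at 1.15 ± 0.012, with 32 higher and 15 lower of 66. The other loci of chromosome III also gave the highest ratio, at 1.04 ± 0.031.

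Members named after chemoreceptor families carried few 22G-RNAs. Low levels were common among all members, of which 468 of 1423 exceeded 1 RPM in the control. Of the members, 294 carry a family name, from 94 families. The largest group, 162 members named after chemoreceptor families, which detect odours and tastes in sensory neurons, summed to only 66.7 and 65.5 RPM in the control and 64.2 and 63.2 RPM in eggd-1. Only 12 of the 162 could be tested, and srx-70 (HRDE1, MUT16) alone held 71.3% of their control RPM, with 47.6 and 46.6 RPM against 43.8 and 43.0 RPM. The 18 C-type lectin pseudogenes summed to 18.4 and 17.1 RPM against 6.90 and 5.84 RPM. Of the 4 tested, 3 fell and 1 rose, beside 40.8% lower and 21.7% higher of all loci tested. The 22 srz pseudogenes summed to 2.35 and 1.96 RPM against 5.23 and 5.21 RPM, and both of the 2 tested rose. Of these 2, srz-34, with 0.284 and 0.384 RPM against 2.15 and 2.35 RPM, entered the test only through eggd-1, as given above. Its direction is therefore no evidence about the family. No family had 5 tested members. Pseudogenes related to the small RNA machinery were also targets: besides wago-2 these were drh-2, with 2.38 and 3.17 RPM against 2.47 and 2.53 RPM, and wago-11, which was below the depth for testing. Of a list of 39 genes that make or use 22G-RNAs, 37 were themselves 22G-RNA loci and none was a member. Among these 37, 15 fell, 15 rose and 7 did not pass, beside 40.8% lower and 21.7% higher of all loci tested.

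Little of the pseudogene 22G-RNA level was left after periodate oxidation. The members summed to 1327 RPM in oxidized N2 and 1260.3 RPM in oxidized eggd-1, which was 3.06% of the untreated control mean and 3.05% of the untreated eggd-1 mean. There is 1 oxidized library per genotype, so there is no test, and RPM in these libraries are relative to a pool in which oxidation-resistant RNAs dominate. Among the 22G-RNAs that were left, the members' share was 12.4% (95% Wilson interval 12.3 to 12.5) in N2 and 11.9% (11.8 to 12.1) in eggd-1; the intervals cover counting error only. For the 291 members with at least 5 RPM in the control, the median remainder was 2.01% in N2 and 2.81% in eggd-1, and 11 and 8 of them kept more than 10%.

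The highest members after oxidation were Y46H3C.6 with 121.8 RPM in N2 and 81.8 RPM in eggd-1, cars-2 with 63.4 and 63.6 RPM, and Y52B11A.18 with 52.6 and 66.7 RPM. Y46H3C.6 thus stood at 8.22% and 6.66% of its untreated RPM, whereas the most abundant untreated locus, Y59H11AR.6, stood at 0.353% and 0.367%. A single one of the 291 had no lower RPM after oxidation than before. RPM there are relative to the resistant pool, in which ERGO1-class 26G-RNAs stood at 10.97 (N2) and 9.25 (eggd-1) times their untreated RPM. An unchanged RPM is therefore not the part of its 22G-RNAs that resisted. Y57G11C.57 (chromosome IV, 14780940 to 14781266, 271 bases of exon, no class), picked out after its values were seen, had 20.97 and 20.7 RPM in the untreated control and 20.9 RPM in oxidized N2. In eggd-1 it had 17.4 and 13.01 RPM untreated and 26.5 RPM oxidized. The oxidized values rest on 567 and 516 counts. C14B1.7 differed between the oxidized libraries, with 4.70 RPM in N2 from 127.5 counts and 30.9 RPM in eggd-1 from 602 counts. This was in the same direction as in the untreated libraries. It was not alone: F43G6.3 had 0.885 RPM in oxidized N2 against 7.09 RPM in oxidized eggd-1, and W06A11.4 had 1.42 against 9.85 RPM.

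**Figure D4:**
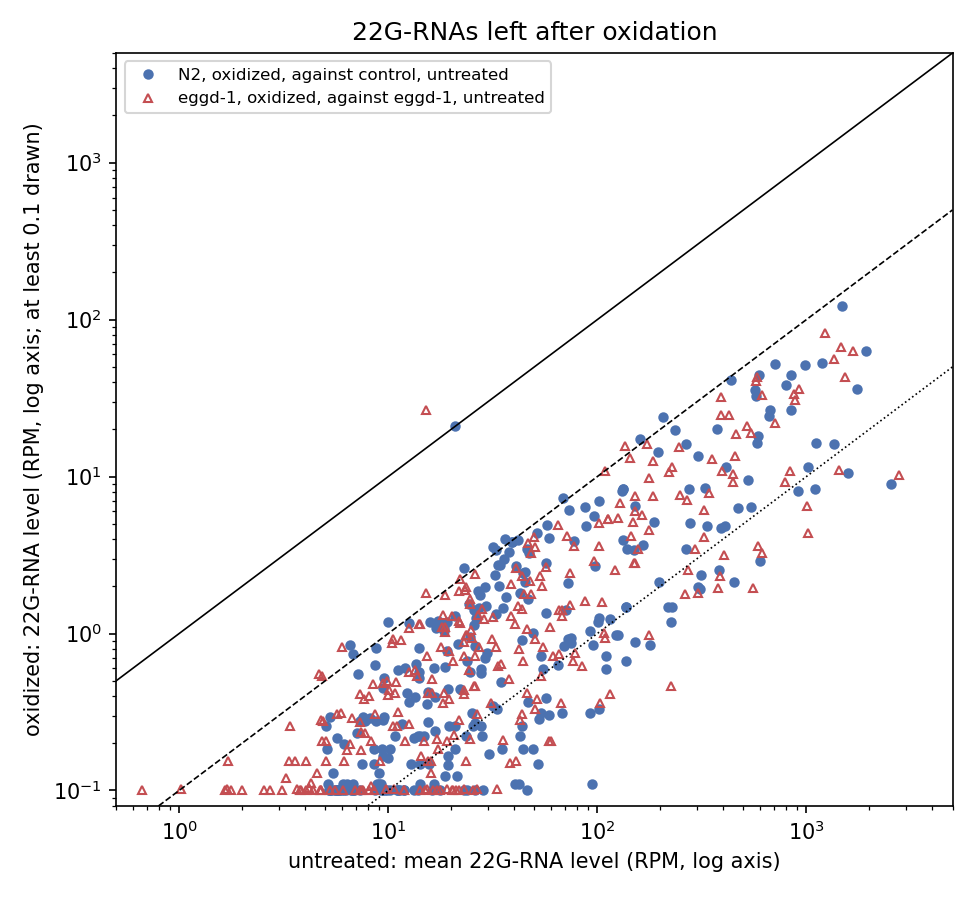
22G-RNA level of the 291 pseudogenes with at least 5 RPM in the control, before oxidation (horizontal, mean RPM) and after it (vertical, RPM, values under 0.1 drawn at 0.1), on log axes; blue circles are N2 against the untreated control, red triangles eggd-1. The solid, dashed and dotted lines mark an oxidized RPM of 100%, 10% and 1% of the untreated RPM. Nearly all points lie below 10%, and the pair on or above the solid line is Y57G11C.57.

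Some of the same pseudogenes also carried 26G-RNAs. Loci of the ERGO1 and ALG34 classes had been left out beforehand, so none of the members is of either class. 26G-RNA reads were found at 379 members, and in the untreated libraries at 368. They summed to 135.4 and 133 RPM in the control and 107 and 114 RPM in eggd-1, with a ratio of 0.822 ± 0.038 (exact permutation p = 0.33). ERGO1-class loci, for comparison, had a ratio of 0.683 ± 0.036, and all 26G-RNA loci 1.53 ± 0.072. After oxidation the members summed to 1607 RPM in N2 and 1023 RPM in eggd-1, 11.97 and 9.27 times their untreated means. ERGO1-class loci stood at 10.97 and 9.25 times, and ALG34-class loci at 1.76 and 0.466 times.

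Just 8 members held 85.2% of the members' 26G-RNA level in the control. The highest was Y17D7C.3, with 40.99 and 37.3 RPM in the control, 26.1 and 24.9 RPM in eggd-1, 490 RPM in oxidized N2 and 271 RPM in oxidized eggd-1. C36A4.14 (chromosome III, 3830279 to 3832240, MUT16, PRG1) had 20.97 and 22.5 RPM against 12.9 and 13.98 RPM untreated, and 254 and 134 RPM oxidized. F39E9.10 (chromosome II, 3302761 to 3303750, Oogenic, MUT16) had 15.7 and 17.3 RPM against 12.6 and 13.4 RPM untreated, and 226 and 154 RPM oxidized. F39E9.28, next to it on the same strand (3304070 to 3305774, no class), had 7.76 and 6.88 RPM against 9.20 and 9.47 RPM untreated, and 90.8 and 94.1 RPM oxidized. T02G6.10 (chromosome I, 11824976 to 11825787, MUT16) had 4.01 and 3.74 RPM against 1.81 and 2.15 RPM, and 42.3 and 19.6 RPM oxidized. The others were Y59H11AR.6, Y105C5A.25 and WBGene00194667. Of the 8, 7 are of the MUT16 class. Their 26G-RNAs were between 10.9 and 19.9 times higher after oxidation in N2, and between 8.81 and 11.9 times higher in eggd-1. Their 22G-RNAs in oxidized N2 stood at between 0.353% and 1.84% of their untreated RPM.

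Between the untreated groups, 19 members had enough 26G-RNA reads for edgeR's test, a comparison chosen after the values were seen. Of these, 5 fell, beside 5.49% of the 875 loci tested, and 2 rose, beside 82.9% of the loci tested. Scaling was to genome-mapped reads, and ALG34-class 26G-RNAs summed to 3.30 times the control. The 5 that fell are all among the 8 highest. T02G6.10 fell by 0.96, C36A4.14 by 0.69 and Y17D7C.3 by 0.62 on the log2 scale (SE 0.19, 0.13 and 0.14, edgeR adjusted p = 0.000429, 0.000338 and 0.000836), and these 3 calls held without any 1 library. WBGene00194667 and F39E9.10 also fell (−0.53 ± 0.19 and −0.35 ± 0.13, edgeR adjusted p = 0.0175 and 0.0239), but each lost the call in 3 of the 4 fits with a library left out. F39E9.28 rose by 0.35 ± 0.14 (edgeR adjusted p = 0.0289) and lost the call in every such fit. B0285.11, at a much lower level, was the other that rose, by 1.99 ± 0.42.

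At these loci 22G-RNAs did not fall with the 26G-RNAs in any of the 5 that fell. C36A4.14 had 276.8 and 276.9 RPM of 22G-RNAs in the control and 331 and 316 RPM in eggd-1, a rise of 0.22 ± 0.07 on the log2 scale (edgeR adjusted p = 0.006). F39E9.10 had 384 and 378 RPM against 574 and 601 RPM, a rise of 0.63 ± 0.07 (edgeR adjusted p = 4.37e-09), and WBGene00194667 rose by 0.24 ± 0.07. The 22G-RNAs of T02G6.10, with 58.5 and 55.7 RPM against 60.3 and 57.8 RPM, and of Y17D7C.3 did not pass. Both quantities are in RPM of the same libraries. With TMM the 22G-RNAs of Y17D7C.3 passed as a rise, as given above.

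**Figure D5:**
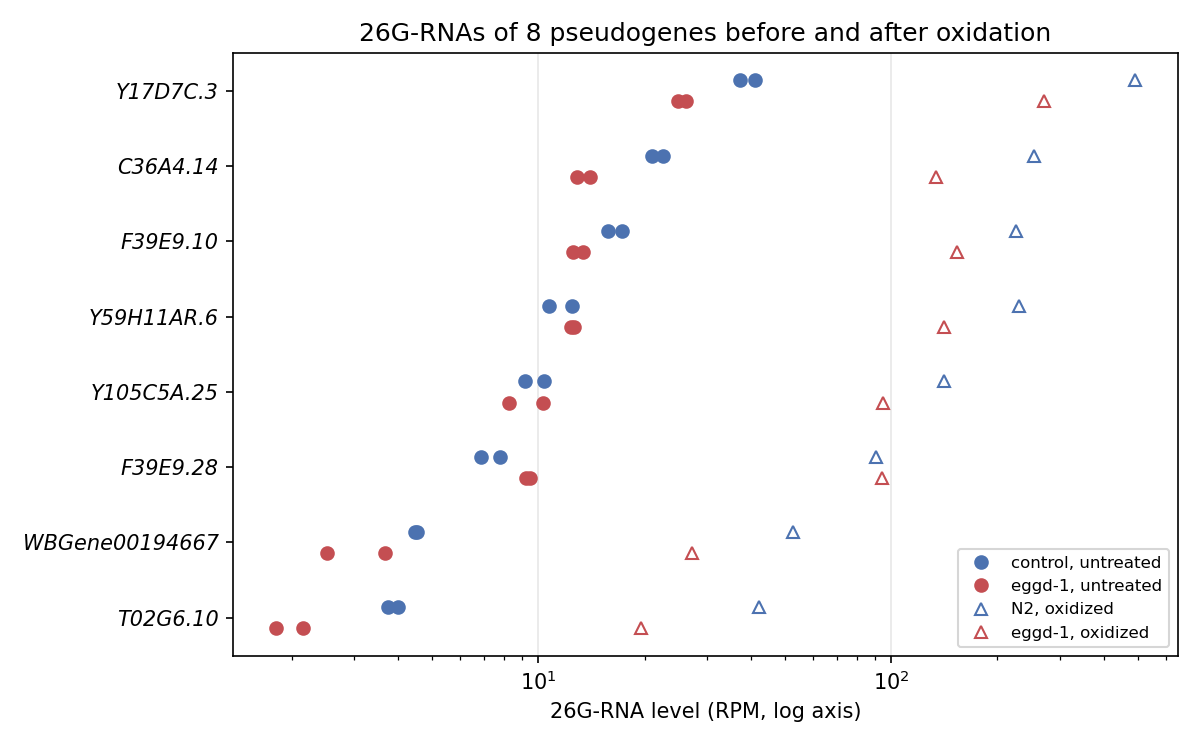
26G-RNA level of the 8 pseudogenes with the highest control 26G-RNA mean, in RPM on a log axis, 1 point per library: filled circles are untreated, open triangles oxidized, blue control or N2, red eggd-1. At every locus the oxidized points lie at least 8.81 times above the untreated mean of the same colour, and for Y17D7C.3 and C36A4.14 both untreated eggd-1 points lie below both control points.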

How the data were processed

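The authors trimmed reads with Trim Galore, removed structural RNAs, aligned perfect matches with Bowtie to the WormBase WS279 genome (assembly WBcel235), and divided each read among its locations and overlapping features. The deposited estimated counts and RPM values (counts scaled to the genome-mapped reads) for each locus and RNA class were used as the authors made them. 22G-RNAs are antisense reads at exons. Pseudogenes with close relatives share reads: 522 of the 1423 members had whole-number counts in every library (zeros included, within 1e-06 of a whole number), 49 overlap another gene's exons on the same strand, and 12 tested ones share all values, within the same tolerance, with another locus.

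After rounding to whole numbers, the counts went into edgeR 4.0.16 (R 4.3.3; glmQLFit and glmQLFTest, filterByExpr with a minimum count of 10, genome-mapped reads as library size without further scaling, Benjamini-Hochberg over all loci tested). Alternatives used DESeq2 1.42.0, limma 3.58.1 on log2(RPM + 0.1), other scalings and filters. Summed RPM were compared by exact two-sided permutation tests (scipy 1.17.1), whose smallest p with 2 against 2 is 0.33. The counting floor is 3 counts, about 0.1 RPM. Coordinates are from Ensembl release 115, matched by gene identifier for 1422 members. Replicate numbers did not pair the libraries (correlation of same-numbered deviations 0.0567), and no library was a copy of another.

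Members and lists were chosen with earlier results of these data known. Named members were the 10 with the highest control RPM, the 10 largest decreases and increases among called members with a mean of at least 50 counts, the highest member of each class and the 3 highest in each oxidized library. Other named loci, such as abt-3, cyp-31A1 and W06A11.4, are to be read as chosen after their values were seen, also where this is not said. Families and germ-cell markers were described by counts and sums. No sequences were printed.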

Additional observations from a re-analysis of the deposited data

Results flagged for a closer look

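For 3 named pseudogenes the eggd-1 libraries lay on opposite sides of the control before and after oxidation. The difference between the comparisons was not tested, each oxidized group is 1 library, and the untreated control carries pgl-1::RFP whereas the oxidized one is N2. The ratio of eggd-1 to control was 0.871 untreated and 1.002 oxidized for cars-2, which rests on 63.4 against 63.6 RPM and so on nearly equal values. For Y39E4B.14 it was 0.879 untreated and 1.198 oxidized, from 973.5 and 837 counts in the oxidized libraries. For Y17D7C.3 it was 1.06 untreated and 0.684 oxidized, from 436 and 214 counts. Of the named members, 23 were examined in this way, with at least 20 counts required over the oxidized libraries.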

How the results depend on the processing

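The counts of members called lower and higher at 4-fold were 18 and 10. They stood at 16 and 15 with TMM, 17 and 13 with the 22G-RNA total as library size, 15 and 15 with DESeq2, and 18 and 10 with the replicate number as a block, which changed no call. Without the filter on low counts they were 27 and 21, with a mean of at least 50 counts 12 and 1, with the fold threshold inside the test 10 and 1, with limma 15 and 5, and among members with whole-number counts (130 tested, chosen after seeing the data) 8 and 5. Leaving out each library in turn gave between 18 and 23 lower and between 8 and 14 higher. With 1 library left in a group its spread is taken from the other group. Of the 28 calls, 26 held with TMM, 27 with the 22G-RNA total, 24 with DESeq2, 20 with limma, 13 with a mean of at least 50 counts, 11 with the threshold inside the test, 25 in each fit without a single library, and all with the block.

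The summed members' ratio of 0.953 became 0.997 relative to the 22G-RNA total and turned to 1.055 with TMM. It lay between 0.933 and 0.973 without single libraries, and the members' share of 22G-RNAs between 0.98 and 1.014 times the control. Without the 10 highest members that share was 1.017 times the control. Relative to the 22G-RNA total and with TMM (the latter chosen after seeing the data), the class ratios were 0.845 and 0.894 for HRDE1, 0.877 and 0.928 for PRG1, 0.935 and 0.99 for MUT16, 1.154 and 1.221 for CSR1, 1.013 and 1.072 for Spermatogenic, 1.273 and 1.347 for Oogenic, 1.095 and 1.159 for GenderNeutral, and 0.898 and 0.95 for members with no class. TMM gave 0.951 for WAGO1 and 1.093 for WAGO4. Without single libraries they ranged from 0.788 to 0.827 (HRDE1), 0.821 to 0.857 (PRG1), 0.874 to 0.914 (MUT16), 0.831 to 0.888 (WAGO1), 0.954 to 1.022 (WAGO4), 1.09 to 1.118 (CSR1), 0.946 to 0.992 (Spermatogenic), 1.191 to 1.244 (Oogenic), 1.034 to 1.061 (GenderNeutral) and 0.847 to 0.87 (no class).

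Among single members, K08B4.5, which did not pass, turned to 0.0124 with TMM and 0.0211 with DESeq2 on the log2 scale. Of 322 refitted 22G-RNA values of single members, 283 kept their direction and side of the threshold, 26 lost and 11 gained a call, and 2 turned. The causes were not tested. The alternative restricted to loci with mostly unique sequence was not run, since no genome sequence was used here. Depth limits 820 members, which had at most 12.75 counts on average.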
